A study of Mus musculus with 5 samples.

Results

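The genes described here are those of MHC class II antigen presentation that the deposited lists name: Cd74, H2-Aa, H2-Ab1, H2-Eb1 and H2-DMa. The last 4 are called the H2 class II genes, as distinct from class I genes of the same prefix such as H2-T23. They were found by exact symbol, and with Cd74 are 5 of the 688 genes that stand in any list. Group 2 innate lymphoid cells (ILC2s) were isolated from 5 tissues, namely lung, pancreas, bone marrow (BM), small intestine (SI) and large intestine (LI), of wild-type male C57BL/6 mice aged 6 weeks, and cells of 10 mice were pooled. BM, LI, lung and pancreas ILC2s were gated as Lin-ST2+CD25+ cells, and SI ILC2s as Lin-CD45+KLRG1+ cells with intermediate or low Thy1. The lineage cocktail (Lin) held antibodies to CD3, B220, CD11b, CD11c and FceRI, and so was directed at T cells, B cells, macrophages and dendritic cells among others. Each tissue gave 1 droplet single-cell 3′ RNA-seq library, with LI, lung and SI prepared together and BM and pancreas prepared together.

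The authors divided the ILC2s of each tissue into sub-clusters, 36 in all, numbered from 0 within a tissue (BM 8, LI 8, lung 6, pancreas 7 and SI 7). A sub-cluster is named here by its tissue and number, as in BM 7. For each one the tables list the genes that were higher than in all other sub-clusters of that tissue together (the list against all), and those higher than in 1 other sub-cluster at a time (the 1 versus 1 lists). There are 36 lists against all, with 508 entries, and 226 1 versus 1 lists. A list holds symbols only, with no expression level, fold change, p-value or cell number. The depth is therefore unknown, no library has a replicate, and a listing is a direction without a size or an error. A gene that is missing from a list is not shown to be equal between sub-clusters, nor to be absent from the cells. The sub-clusters were formed from the same cells and genes, so a listing describes a sub-cluster and is not a test of it. The lists cannot check that the cells were ILC2s, because genes that every sub-cluster expresses alike would stand in none of them. Of 23 genes of type 2 immunity and ILC2 identity, 18 were in at least 1 list.

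MHC class II molecules are pairs of an α and a β chain that carry peptides to the cell surface, where CD4+ T cells read them. In the mouse, H2-Aa and H2-Ab1 encode the α and β chains of I-A, and H2-Eb1 encodes the β chain of I-E. C57BL/6 mice do not make the I-E α chain, so they have no I-E at the surface although H2-Eb1 is transcribed. Cd74 encodes the invariant chain, which fills the peptide groove of new class II molecules and guides them to endosomes, and which at the surface also serves as a receptor for the cytokine MIF. H2-DMa encodes a chain of H2-DM, the endosomal protein that exchanges the invariant chain remnant for peptide. These genes are usually transcribed together, under the co-activator CIITA. They are strongest in B cells, dendritic cells and macrophages, and ILC2s are known to carry lower amounts of class II and to interact with CD4+ T cells.

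The first question was which ILC2 sub-clusters listed class II genes as higher. The classical chains and H2-DMa were confined, in these lists, to BM and SI. H2-Aa, H2-Ab1 and H2-Eb1 were each listed against all in BM 7 and in SI 4, and H2-DMa in BM 7 alone. Cd74 reached further. It was listed against all in 4 sub-clusters of 4 tissues (BM 7, LI 6, pancreas 5 and SI 4), and it stood in at least 1 of the 1 versus 1 lists of 4 more (BM 6, LI 5, SI 5 and SI 6). The remaining 28 sub-clusters held none of the 5 genes in any list. Lung was the tissue without a class II listing: none of the genes was in any of its 30 1 versus 1 lists or its 6 lists against all. Per the methods of the study, lung was also the sample with the fewest cells, and the part of cell number in this absence was not tested. The methods also state that LI and pancreas ILC2s were filtered repeatedly for other cell types. The part of that filter in the contrast between tissues was not tested either.

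**Figure D1:**
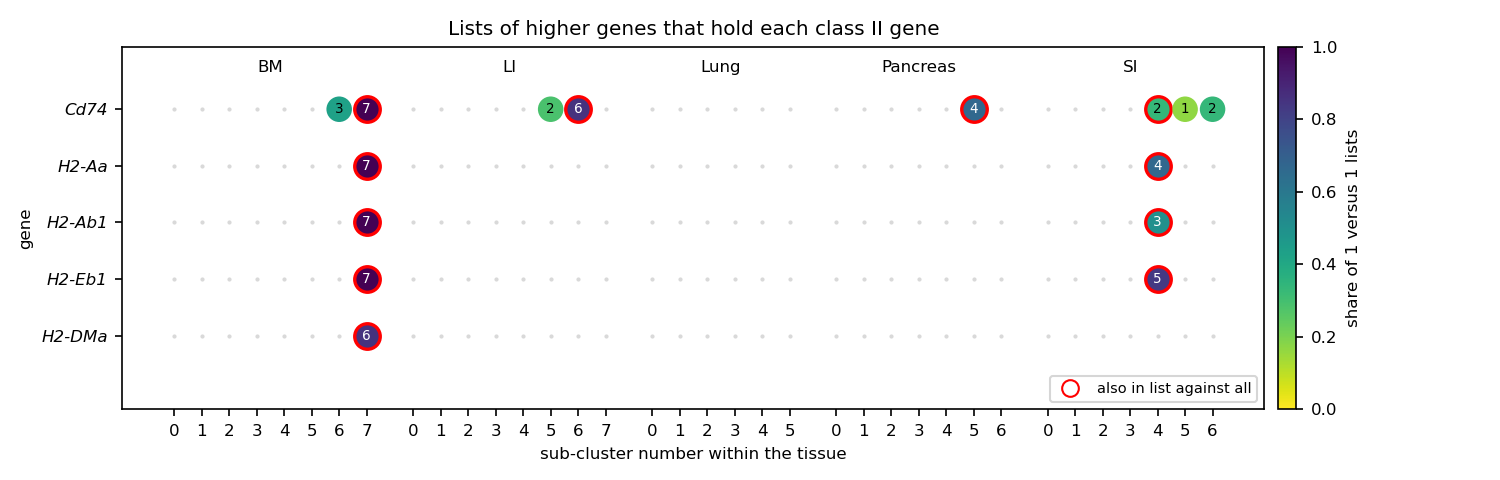
Lists that hold each class II gene (rows) in each of the 36 sub-clusters (columns, grouped by tissue). The number and the colour give how many, and what share, of a sub-cluster's 1 versus 1 lists hold the gene; a red ring marks the list against all; a small grey dot means no listing. Cd74 has 8 filled circles in 4 tissues, H2-Aa, H2-Ab1 and H2-Eb1 have 2 each, H2-DMa has 1 and lung has none.

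BM 7 was the sub-cluster in which all 5 genes came together. The choice of genes fixed part of this, because they were taken from these same lists and H2-DMa was listed in BM 7 alone. The BM 7 list against all held 5 genes and no other, in the deposited order Cd74, H2-Ab1, H2-Aa, H2-Eb1 and H2-DMa. These 5 genes are 3.42% of the 146 genes in any BM list. H2-Aa, H2-Ab1, H2-Eb1 and Cd74 were each in 7 of the 7 1 versus 1 lists of BM 7, and no other gene was in all 7. H2-DMa was in 6 of 7 and was missing from the list against BM 6. All 5 genes were among the 30 genes that BM 7 listed over at least 1 other sub-cluster, which are 20.5% of the BM genes.

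The 1 versus 1 lists of BM 7 were short, with 7, 6, 5, 11, 6, 23 and 4 genes over BM 0 to BM 6 in turn. In each of them Cd74 was in place 1, H2-Ab1 in place 2, H2-Aa in place 3 and H2-Eb1 in place 4. H2-DMa followed between places 5 and 14. The sources used here do not say what the order of a list means. The list over BM 6 held Cd74 and the 3 I-A and I-E chain genes and nothing else. In all, the class II genes made up 34 of the 62 entries of these lists, or 54.8%. In the other 7 sub-clusters with a class II listing their share lay between 0.469% (SI 6) and 6.86% (SI 4). The genes were chosen from these same lists, so the shares are descriptions and not tests.

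Few other genes set BM 7 apart. The other 25 genes in its 1 versus 1 lists were mostly in a single list each. The exceptions were H2-T23, which encodes the non-classical class I molecule Qa-1 and was listed over BM 0, BM 3 and BM 4, and Ccl5, a chemokine of NK cells and T cells, listed over BM 0 and BM 3. Another 18 genes were listed over BM 5 alone, and such genes were not all particular to BM 7. Of these, Klf9 was also in 1 list each of BM 0, 1, 2, 4 and 6, and Hspa5 in 1 list each of BM 0, 1, 4 and 6. Among the 18 were also Ccr9, a gut-homing chemokine receptor, and Jun and Junb, which encode AP-1 transcription factors. Nfkbia and Tnfaip3, which encode inhibitors of NF-κB signalling, and Zfp36, which encodes an mRNA decay factor, were others.

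**Figure D2:**
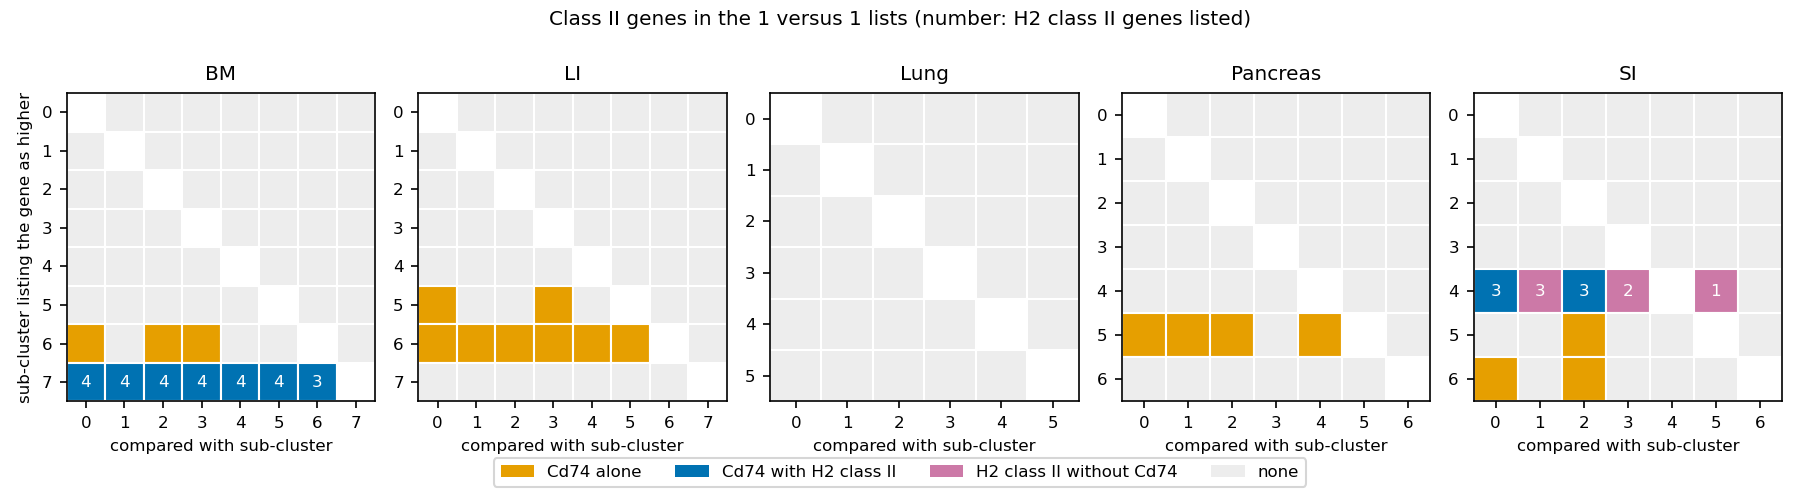
Class II genes in the 226 1 versus 1 lists, in 1 panel per tissue. A filled square means that the sub-cluster of the row listed Cd74 alone (orange), Cd74 with H2 class II genes (blue) or H2 class II genes without Cd74 (pink) over the sub-cluster of the column, and the number counts the H2 class II genes; grey squares hold none and the white diagonal is no comparison. BM 7 fills its whole row, SI 4 holds the 3 lists with H2 class II genes and no Cd74, and 18 lists hold Cd74 alone.

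SI 4 was the only other sub-cluster to list H2 class II genes, and it listed fewer of them and in fewer comparisons. Its list against all held 24 genes, 7.1% of the 338 genes in any SI list. Among these were Cd74 in place 5, H2-Eb1 in place 6, H2-Aa in place 11 and H2-Ab1 in place 12. None of the 4 was in every 1 versus 1 list. H2-Eb1 was in 5 of 6 (over all but SI 6), H2-Aa in 4 (over SI 0, 1, 2 and 3), H2-Ab1 in 3 (over SI 0, 1 and 2) and Cd74 in 2 (over SI 0 and 2). Over at least 1 other sub-cluster, SI 4 listed 91 genes, or 26.9% of those in SI, and 4 of the 5 class II genes were among them.

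The class II genes that SI 4 listed differed from comparison to comparison. Over SI 0, in a list of 27 genes, Cd74 was in place 2, H2-Eb1 in place 8, H2-Aa in place 13 and H2-Ab1 in place 14. Over SI 2, in a list of 30 genes, the same 4 genes stood in places 1, 11, 15 and 17. Over SI 1 there were 57 genes and Cd74 was not among them, whereas H2-Eb1, H2-Ab1 and H2-Aa held places 13, 17 and 19. The order of the chains was thus not fixed, since H2-Aa preceded H2-Ab1 over SI 0 and SI 2 and followed it over SI 1. Over SI 3, H2-Eb1 in place 7 and H2-Aa in place 13 of 37 were left, and over SI 5 only H2-Eb1, in place 10 of 24. Over SI 6 the list of 29 genes held no class II gene. SI 6 itself listed Cd74 over SI 0 and SI 2, the same 2 sub-clusters over which SI 4 listed it.

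Most of the other genes in the SI 4 list against all have no known part in class II presentation. The list opened with Il17a, the cytokine IL-17A, and held Ctla4, an inhibitory receptor of the CD28 family, Lgmn, an endosomal protease, Lgals1 (galectin-1), Vim (vimentin), Actn2 (α-actinin-2), Mt1 (metallothionein) and Zeb2, a transcription factor. The genes in 6 of its 6 1 versus 1 lists were 1700061F12Rik, Actn2, Ctla4, Lgals1, Lgmn, Ostf1, Ubald2 and Zeb2. BM 7 and SI 4 therefore had 4 genes in common in their lists against all, 80% of the BM 7 list and 16.7% of the SI 4 list, and every one of the 4 was a class II gene.

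The H2 class II genes were much alike in where they were listed. H2-Aa and H2-Eb1 shared 11 of the 12 1 versus 1 lists that held either, H2-Aa and H2-Ab1 shared 10 of 11, and H2-Ab1 and H2-Eb1 shared 10 of 12. H2-DMa, present in 6 lists, shared all 6 with each of those genes. Cd74 was in 27 lists and shared 9 of 30 with H2-Eb1, 9 of 29 with H2-Aa and 9 of 28 with H2-Ab1. These counts describe the lists and carry no test, because lists of a tissue share cells and sub-clusters.

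The 4 H2 class II genes in these lists lie within a span of 197.1 kb in the class II region of chromosome 17 (mm10, GENCODE M21). H2-DMa is at chr17:34119541-34139101 on the plus strand, H2-Ab1 at chr17:34257689-34269419 on the plus strand, H2-Aa at chr17:34282744-34287823 on the minus strand and H2-Eb1 at chr17:34305867-34316674 on the plus strand, and all are protein coding. The annotation places an antisense RNA, Gm20513, within H2-Eb1, and Brd2 on the opposite strand and the antisense RNA CR974462.3 on the same strand within H2-DMa. Reads of H2-DMa could be shared with such overlapping genes, and the sources used here do not say how the counting treated them.

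Class II promoters are known for an X box, bound by the RFX complex, and a Y box, bound by NF-Y, at a set spacing upstream of the start site. Promoters of 300 bases (250 before to 50 after the start site) were taken from RefSeq on GRCm38.p6 for 3 of the 5 genes. H2-Aa and H2-Eb1 had 1 entry each and H2-DMa had 2. Promoters of Cd74 and H2-Ab1 were not searched. The promoters taken were searched on both strands for the core letters GCAAC (X) and ATTGG (Y, which reads CCAAT on the other strand). The cores were sought as a pair whose starts lie 20 to 40 bases apart. That window was chosen after the promoters had been seen. H2-Aa and H2-Eb1, the genes that shared 11 of 12 lists, each held 1 such pair on the strand of the gene, and the stretches that contain it are shown with the cores in capitals, 5′ to 3′ on the gene's strand. The H2-Aa stretch covers chr17:34287857-34287914 (minus strand) and the H2-Eb1 stretch chr17:34305766-34305822 (plus strand).
H2-Aa: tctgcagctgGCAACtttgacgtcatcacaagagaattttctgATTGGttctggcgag
H2-Eb1: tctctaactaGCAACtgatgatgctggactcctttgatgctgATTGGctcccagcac

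In H2-Aa the X core began 81 and the Y core 48 bases before the start site, 33 bases apart. In H2-Eb1 they began 91 and 59 bases before it, 32 bases apart. Of 32851 promoters in the table, 0.521% held the pair on the strand of the gene and 1.02% on either strand, while the single X core was in 35.2% and the single Y core in 37.4%. The pair was also in 3 of the 5 entries for other H2 class II genes (H2-Oa, H2-Ob and H2-Eb2 but not H2-DMb1 and H2-DMb2), and none of these 5 genes was in any list. Neither H2-DMa entry (chr17:34122582-34122881 and chr17:34125268-34125567) held the pair. Both entries lie inside the annotated gene and not at its start, so other start sites of H2-DMa were not searched. A match is a description of letters, and a promoter without one may still be bound.

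Cd74 was listed without any H2 class II gene more often than with one. Of its 27 1 versus 1 lists, 18 held Cd74 as the only class II gene and 9 held it with H2 class II genes. Another 3 lists, all of SI 4, held H2 class II genes without Cd74. The 18 lists came from 6 sub-clusters: LI 6, pancreas 5, BM 6, LI 5, SI 6 and SI 5. In LI 6 and pancreas 5 Cd74 alone was also in the list against all. No H2 class II gene was in any of the 56 1 versus 1 lists of LI or the 42 of pancreas. Per the methods of the study, the filter against other cell types was repeated for LI and pancreas ILC2s. The part of this filter in the absence of H2 class II genes there was not tested. Cd74 lies apart from the H2 class II genes, on chromosome 18 at position 60803848 to 60812652 of the plus strand, and the annotation places the microRNA gene Mir5107 within it.

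LI 6 gave the broadest of these listings. Cd74 was in place 14 of the 50 genes listed against all, which are 10.7% of the 466 genes in any LI list. It was in 6 of 7 1 versus 1 lists, over LI 0 to LI 5, in places 10, 14, 8, 10, 13 and 44 of lists of 64, 65, 45, 100, 57 and 64 genes. The place was thus late only over LI 5, which itself listed Cd74 over LI 0 and LI 3. The list over LI 7 was the shortest of LI 6, with 11 genes, and did not hold Cd74. Over at least 1 other sub-cluster, LI 6 listed 144 genes, or 30.9% of the LI genes.

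In pancreas 5 Cd74 was near the end of the list against all, in place 19 of 20, a list that holds 14.7% of the 136 genes in any pancreas list. It was in 4 of 6 1 versus 1 lists, over pancreas 0, 1, 2 and 4, in places 21, 12, 17 and 23 of lists of 33, 17, 32 and 24 genes. The lists over pancreas 3 (18 genes) and pancreas 6 (13 genes) did not hold it. Over at least 1 other sub-cluster 44 genes were listed, or 32.4% of those in pancreas. Capg, an actin-capping protein, Anxa2 (annexin A2), Fgl2, a secreted immune regulator, and Grap, an adaptor protein, were in 6 of 6.

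The other 4 sub-clusters listed Cd74 over some neighbours but not against all. BM 6 listed it over BM 0, 2 and 3, in places 34 to 36 of lists of 39, 39 and 41 genes, and listed 64 genes, or 43.8% of the BM genes, over at least 1 other. LI 5, whose 8 genes in every 1 versus 1 list all encode heat shock proteins or chaperones (Hspa1a and Hsp90aa1 among them), listed Cd74 over LI 0 in place 16 of 17 and over LI 3 in place 40 of 68, and 25.3% of the LI genes over at least 1 other. SI 6 listed it over SI 0 in place 25 of 33 and over SI 2 in place 53 of 77, and 48.2% of the SI genes over at least 1 other. SI 5 listed it over SI 2 alone, in place 16 of 17, and 11.2% of the SI genes over at least 1 other. All 8 of these lists were over sub-clusters over which BM 7, LI 6 or SI 4, of the same tissue, listed Cd74 as well.

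**Figure D3:**
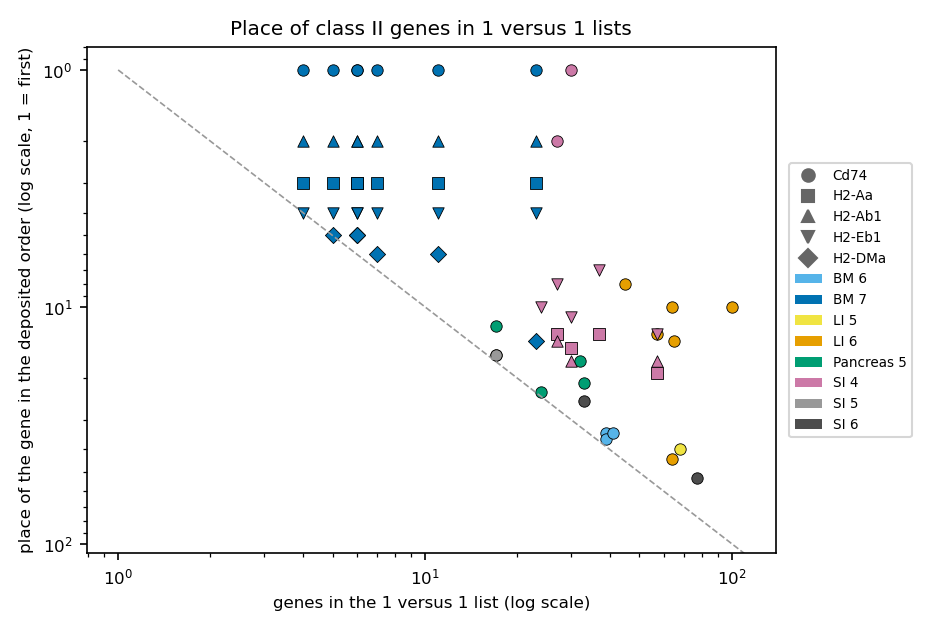
Place of each class II gene in the deposited order (vertical axis, log scale, 1 at the top) against the number of genes in the 1 versus 1 list (horizontal axis, log scale); the symbol gives the gene, the colour the sub-cluster, and the dashed line the last place of a list. BM 7 holds places 1 to 4 in all 7 of its lists, whereas Cd74 of BM 6 lies between places 34 and 36; the points of LI 5 and SI 5 at place 16 of 17 coincide.

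Each pair of sub-clusters of a tissue has a list in both directions, 113 pairs in all. No class II gene was listed in both directions of a pair. Cd74 was listed in 1 direction in 27 pairs (BM 10, LI 8, SI 5, pancreas 4 and lung 0) and in neither in 86. H2-Eb1 was listed in 12 pairs, H2-Aa in 11, H2-Ab1 in 10 and H2-DMa in 6. In BM, Cd74 was listed by BM 7 over all others, by BM 6 over BM 0, 2 and 3, and by the rest over none. In LI it was listed by LI 6 over LI 0 to LI 5, by LI 5 over LI 0 and LI 3, and by the rest over none. LI 7 neither listed Cd74 nor was exceeded for it in any list. In SI, SI 4, SI 5 and SI 6 listed Cd74 over SI 2, and SI 4 and SI 6 over SI 0, with no listing among SI 4, SI 5 and SI 6.

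The genes listed beside Cd74 differed between BM 7 and the other 3 sub-clusters that list it against all. LI 6 and SI 4 had 15 genes in common, 30% of the LI 6 list and 62.5% of the SI 4 list. Apart from Cd74 these were 1700061F12Rik, Actn2, Cd52, Ctla4, Cyb5a, Il17a, Lgals1, Lgmn, Ostf1, Tor1aip1, Ubald2, Uhrf2, Vim and Zeb2, and no H2 class II gene. LI 6 and pancreas 5 shared 7 genes (14% and 35% of their lists), including Tnfsf8, the ligand of CD30, S100a11, a calcium-binding protein, and Cd3g, a chain of the T cell receptor complex. Pancreas 5 and SI 4 shared 5 (25% and 20.8%), including Crip1. Actn2, Lgals1 and Uhrf2, which encodes a ubiquitin ligase that binds modified DNA, were in all 3 lists of LI 6, pancreas 5 and SI 4. Uhrf2 was in no other list against all, whereas Actn2 was also in that of lung 1 and Lgals1 in those of 5 more sub-clusters. BM 7 shared Cd74 alone with LI 6 (20% of its list and 2% of the LI 6 list) and with pancreas 5 (20% and 5%).

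**Figure D4:**
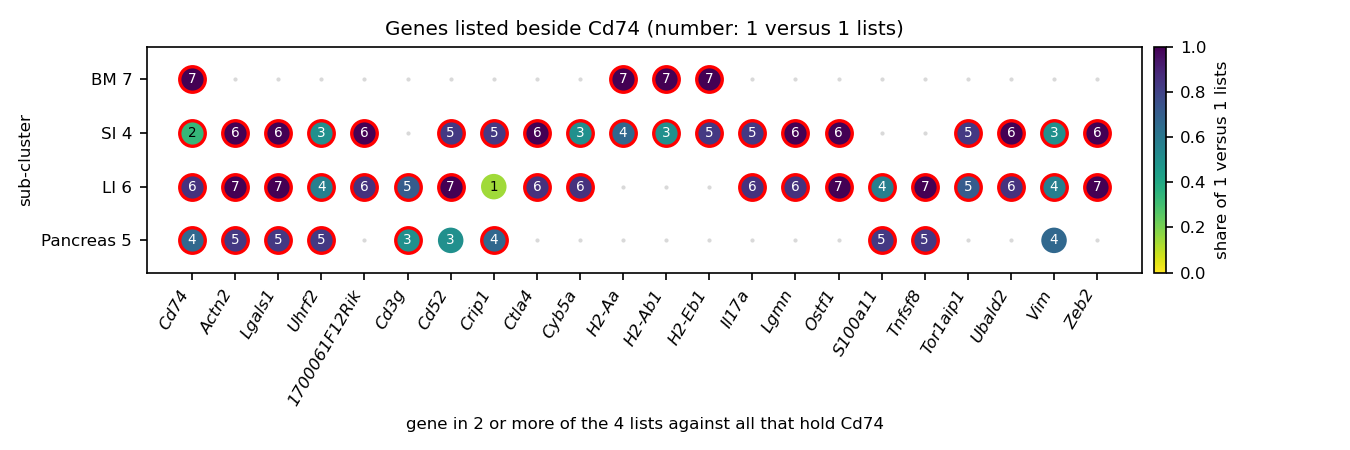
Genes in 2 or more of the 4 lists against all that hold Cd74 (columns) by sub-cluster (rows). The number and colour give how many, and what share, of the 1 versus 1 lists hold the gene, a red ring marks the list against all, and a small grey dot means no listing. Of the genes drawn, BM 7 holds Cd74 and 3 H2 class II genes, whereas Actn2, Lgals1 and Uhrf2 are ringed in the other 3 rows.

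Over all 226 1 versus 1 lists, the genes outside the class II group whose listings were most like those of Cd74 were Actn2 (12 of 37 lists shared), AW112010 (11 of 34), Tnfsf8 (10 of 31), Cd52, a surface glycoprotein (10 of 34), and Cyb5a, cytochrome b5 (8 of 28). The measure is the number of lists with both genes over the number with either, among genes in at least 3 lists. Actn2 and Tnfsf8 are thus as near to Cd74 by this measure (0.3243 and 0.3226) as H2-Ab1 (0.3214) or H2-Aa (0.3103). For the H2 class II genes the nearest outside genes were farther away than the other H2 class II genes. They were Il17a for H2-Eb1 (0.2778, followed by Plac8, 1700061F12Rik, Ctla4 and Lgmn), Mt1 for H2-Aa (0.25, followed by Il17a, 1700061F12Rik, Ctla4 and Lgmn), Mt1 for H2-Ab1 (0.2727, followed by H2-T23, Ctsh, Il17a and 1700061F12Rik) and H2-T23 for H2-DMa (0.25, followed by Ccl5, Hspa5, Klf9 and Gm12216). Mt1 and Ctsh, the gene of the protease cathepsin H, were listed in SI 4 alone, and Il17a, Ctla4, Lgmn and 1700061F12Rik in SI 4 and LI 6.

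Other genes of class II presentation, and genes linked to it, were also looked up. Of 30 further symbols, 5 were in any list (Lgmn, Cd83, Cd9, Cd81 and Cxcr4) and 1 in a list against all. In all, 688 genes were in any list and 308 in a list against all. The genes that the authors tested are not all named, so 5 of 30 cannot be called few or many. The 30 symbols include surface proteins linked to class II or Cd74, such as Cd9, Cd81 and Cxcr4, and March1 and Marchf1 name 1 gene. The symbol in a list against all was Lgmn, whose product, legumain, cleaves antigens and the invariant chain in endosomes. It was listed against all in LI 6 (6 of 7 1 versus 1 lists) and SI 4 (6 of 6), both of which list Cd74, and was in no list of BM 7. Cd83, whose product keeps class II at the surface of dendritic cells, was in 2 of the 1 versus 1 lists of LI 6 in 1 each of SI 4 and SI 5, and in those of 3 sub-clusters with no class II listing (LI 0, LI 2 and SI 0). The co-activator gene Ciita, the RFX subunit gene Rfx5, the partner chain genes H2-DMb1 and H2-DMb2, the H2-DM inhibitor genes H2-Oa and H2-Ob and the protease gene Ctss were in no list of any tissue. Of 10 genes for ligands of costimulatory or inhibitory receptors, 3 were in any list (Tnfsf9, Cd274 and Pdcd1lg2). None of the 3 was in a list of the 8 sub-clusters with a class II listing. Tnfsf8, the ligand of CD30, was not among the 10. It was in 7 of 7 1 versus 1 lists of LI 6 and in 5 of 6 of pancreas 5. Cd80, Cd86 and Cd40 were in no list.

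Interferon induces both class I and class II genes, and such genes stood beside Cd74 in the lists of BM 6 but scarcely in those of BM 7. BM 6 listed 26 of 55 interferon response genes against all, among them Isg15 and Gbp2, and 4 of 28 class I pathway genes (H2-T23, Tap1, Psmb10 and Psme2). The BM 7 list against all held class II genes only, so it could hold none of either. In its 1 versus 1 lists BM 7 held H2-T23 and 1 interferon response gene, Ly6a. Those lists held 4 to 23 genes, and those of BM 6 held 21 to 46. BM 6 in turn listed Irf1 and Isg15 among 21 genes over BM 7. LI 7, which listed Tap1 and Gbp2 over LI 6, had no class II gene in any list. Whether interferon had a part in any class II listing was not tested.

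The IL-17 cytokine genes stood beside Cd74 in both intestinal sub-clusters. Il17a was listed against all in LI 6 and SI 4 and nowhere else, and Il17f in LI 6. Of the 23 type 2 and ILC2 genes, 1 was listed against all in LI 6 (Il13) and 1 in pancreas 5 (Csf2, the cytokine GM-CSF), and none in SI 4. None could be in the BM 7 list against all, which held class II genes only. In the 1 versus 1 lists SI 4 held 5 of the 23, including Il13 over 3 of 6 sub-clusters, and BM 7 held none.

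Markers of the cells that express class II most strongly were looked up in the same lists. None of 18 B cell and plasma cell genes was in any list of any tissue. Of 18 dendritic cell genes, 1 was in any list: Bst2, in BM 6, which interferon also induces. Of 19 monocyte and macrophage genes 5 were in any list, and none of these was in a list of the 8 sub-clusters with a class II listing. The BM 7 list against all held class II genes only, so it could hold no gene of the 8 cell type lists. In its 1 versus 1 lists BM 7 held Ccl5, 1 of the 9 genes on the NK cell and ILC1 list. Of 14 T cell genes, 1 (Cd3g) was listed against all in LI 6 and in pancreas 5. Cd3g was also listed against all in lung 1, which had no class II listing. Of 9 NK cell and ILC1 genes, 1 (Ccl5) was listed against all in pancreas 5. Of 10 basophil and mast cell genes, 1 (Kit) was in 2 of the 1 versus 1 lists of LI 6. SI 4 held no marker of these lists against all. The lineage gate and the removal of clusters with B cell or myeloid markers by the authors bear on these absences, and without levels, barcodes or cell numbers the part of other cells, or of doublets with them, in the class II listings was not tested.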

How the data were processed

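According to the methods of the study and the submitters' processing notes, the authors aligned and counted reads with Cell Ranger on the mouse build mm10, filtered cells with scater, and normalised and clustered them within each tissue with Seurat (version 2 in the notes, versions 2 and 3 in the methods, with R version 3.6.1). Clusters with markers of ILC3s, B cells, T cells, NK cells, myeloid, endothelial or group 1 ILCs were removed. This filter was repeated for LI and pancreas ILC2s. The timing of the removal relative to the sub-clusters and the threshold of the lists are not given in the sources used here.

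Across 5 tables the authors deposited their own comparisons as gene symbols, with no numbers. The gene lists themselves are therefore the data. How doublets were treated is not stated in the methods read here, and lists of symbols allow no doublet call. All 262 columns were read with Python 3.11.15, of which 23 were empty, and 0 belonged to no matched tissue. For each of the 5 genes the lists against all were counted, and the 1 versus 1 lists graded and compared by direction. Likeness was the Jaccard index over 1 versus 1 lists among genes in at least 3, with the 5 nearest named. The other named genes were members of pathway and cell type lists, and up to 20 genes of lists against all with 2 or more of the 5 genes. The members and lists were chosen with earlier results of these data known. The share of genes called uses the genes in any list of the tissue, because those the authors tested are not all named. Of 688 symbols, 684 matched GENCODE M21, including all 5. With 1 library per tissue, no depth and no replicate, no test was made. Other definitions of a listing, another background and loose spelling were tried. Counting was tested on simulated lists, and plots were drawn with matplotlib 3.10.9.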

Additional observations from a re-analysis of the deposited data

How the results depend on the processing

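The count of sub-clusters depends on which lists define a listing. Cd74 was listed in 4 sub-clusters by the list against all, in 8 by at least 1 of the 1 versus 1 lists, and in 1 by every 1 versus 1 list, with or without the list against all. Under either of these strictest definitions H2-Aa, H2-Ab1 and H2-Eb1 were each listed in 1 sub-cluster in place of 2, and H2-DMa in 0 in place of 1. Sub-clusters with Cd74 and no H2 class II gene numbered 2 by the list against all, 6 by at least 1 of the 1 versus 1 lists and 0 by both strictest definitions. By a share of at least 0.5 of the 1 versus 1 lists, Cd74 was listed in 3 sub-clusters, because SI 4 lost it, and the H2 counts were as by the list against all. Spelling without regard to case, hyphens and spaces changed no count. With all 688 genes as the background, the shares called against all were 0.727% in BM 7, 7.27% in LI 6, 2.91% in pancreas 5 and 3.49% in SI 4. That background was not run for the share of BM 7 entries held by class II genes, since it does not enter that share. No paired analysis was possible because each tissue has 1 library and the counts come from no test. Long lists give a gene more room to be listed, and with depth and the cell number of each sub-cluster unknown, a missing listing cannot be told apart from a difference too small to pass an unstated threshold.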
